A study of Mus musculus with 19 samples.

Results

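RNA was sequenced from cultured B16-F10 cells, a melanoma line of C57BL/6 mice, that carried a Mettl5 knockout (KO) or a scrambled control (SCR). The 4 input RNA libraries described here, 2 KO and 2 SCR, are all the input RNA samples among the 19 samples of the series, and were chosen by their labels. They accompany ribosome footprints of the same 2 genotypes in the same culture medium (DMEM with serum). The molecule is labelled as total RNA. Neither the edit nor the guide is stated, nor whether the KO cells are a clone or a pool. Columns headed POOL in the count table were read as KO only because the remaining input RNA columns are headed SCR. The labels do not say that the 2 libraries of a genotype came from separate cultures, so p-values measure the spread between these libraries, which may be technical. Summed gene counts were 48692578 and 43601773 in the KO libraries and 38968000 and 43083013 in the SCR libraries. Of the 55359 genes in the table, 20025 had enough counts to be tested.

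METTL5 is a methyltransferase that, held stable by its partner TRMT112, adds a methyl group to an adenosine of 18S ribosomal RNA. The mark lies near the decoding centre of the small ribosomal subunit, and loss of METTL5 is known mainly for its effects on translation. Input RNA measures how much of each transcript the cells held. Melanoma cells also make and shed matrix proteins, adhesion molecules and lipid mediators, which is why those genes are taken first below.

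Mettl5 (chr2:69701625-69715701, minus strand; positions are on GRCm39 and span the reading frames the authors list for a gene) had 6.46 and 6.21 CPM (counts per 1000000 of the scaled library total) in KO libraries, against 9.23 and 9.41 CPM in SCR libraries. The KO values lay below both SCR values, and the log2 fold change, KO over SCR as throughout, was -0.56 with a standard error (SE) of 0.13 (edgeR adjusted p 0.0284). The call was lost when KO replicate 1 or either SCR library was left out, and when low counts were not filtered. With the edit unstated, this level does not measure the protein. Trmt112 had 28.02 and 24.15 CPM in KO libraries and 14.94 and 15.05 CPM in SCR libraries, and rose by 0.80 log2 units (SE 0.10, edgeR adjusted p 0.00527). The rise was not seen in its footprints, with 9.23 and 8.67 CPM in KO and 9.08 and 13.19 CPM in SCR (log2 fold change -0.32, SE 0.20, edgeR adjusted p 0.384). Of the 10 nearest annotated neighbours of Mettl5, 6 were tested and 0 passed the threshold.

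Across all genes, edgeR's quasi-likelihood test called 1915 genes higher and 1443 lower at an adjusted p below 0.05, which is 16.8% of those tested, 9.56% higher and 7.21% lower. Most rises were small: 1284 of the higher genes moved by less than 0.5 log2 units and 144 by at least 1. Falls were more often large, with 289 genes down by at least 1 log2 unit and 794 by less than 0.5. The median log2 fold change of all genes was -0.01. The number of calls was 1031 without SCR replicate 1, 1417 without SCR replicate 2 and 1193 with no filter on low counts, and none of the 3358 genes changed sign under any of these settings.

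**Figure D1:**
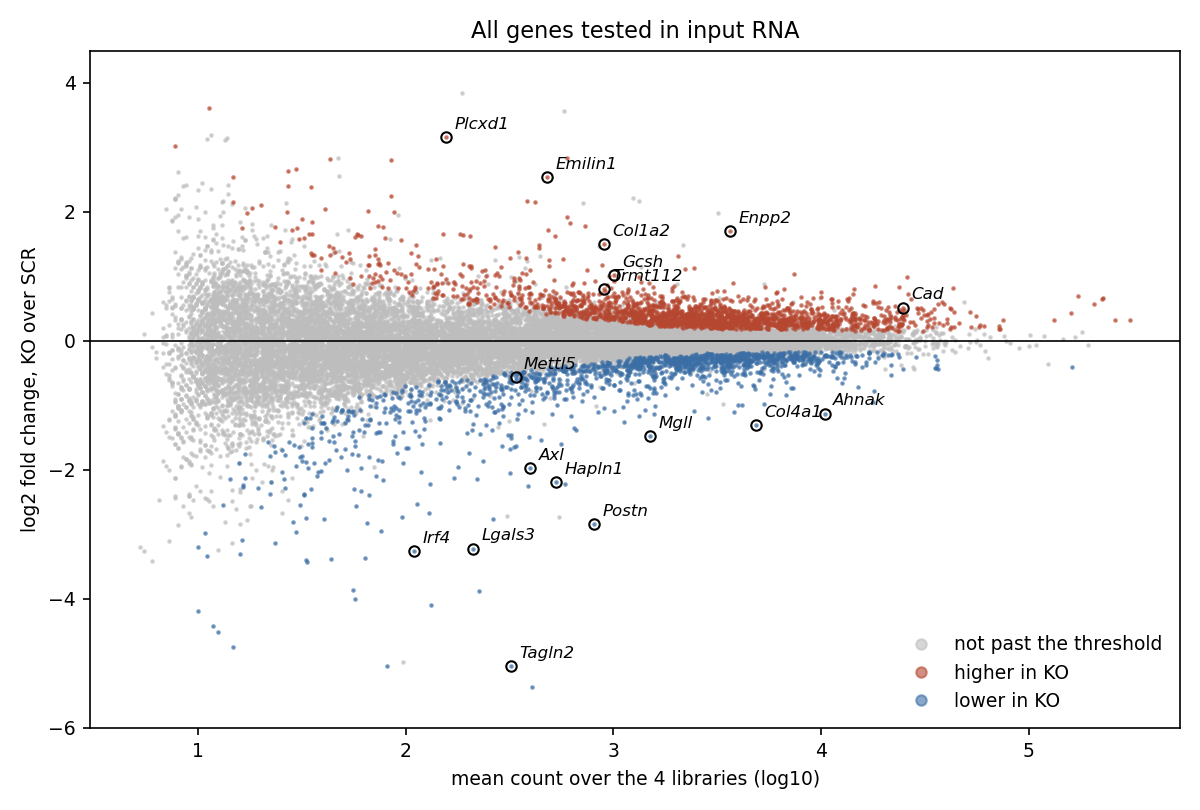
Log2 fold change in input RNA, KO over SCR, against the mean count of the 4 libraries on a log10 axis, with 1 point per gene (19975 drawn; 46 genes at 0 in both libraries of a group and 4 beyond the axis are left out). Red points passed the threshold higher in KO and blue points lower; the ringed genes span Tagln2 at -5.05 to Plcxd1 at 3.16.

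The largest falls outside any list were in genes of varied function. Tagln2, which encodes the actin-binding protein transgelin-2, had 0.277 and 0.626 CPM in KO libraries, against 15.3 and 14.4 CPM in SCR libraries (log2 fold change -5.05, SE 0.29, edgeR adjusted p 0.000411). Tnfrsf21, death receptor 6, had 0.554 and 0.811 CPM in KO libraries and 10.2 and 9.78 CPM in SCR libraries (-3.87, SE 0.21, edgeR adjusted p 0.000367). Both genes were thus close to the lower limit of the data in both KO libraries and well above it in both SCR libraries. Irf4, a transcription factor that also acts in pigment cells, had 0.426 and 0.556 CPM in KO libraries, against 4.73 and 4.68 CPM in SCR libraries (-3.26, SE 0.23, edgeR adjusted p 0.000802). H2-DMb1, a chaperone subunit for class II peptide loading, fell by 2.53 log2 units, and the deacetylase gene Hdac9 by 2.25. The septin gene Septin4 fell by 1.95. In each of these 6 genes both KO libraries were below both SCR libraries. That was required for the largest changes and held for all 3358 called genes. Here and below, such statements therefore describe the values and add no support to a call.

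Among the largest rises, Plcxd1, a phospholipase C-like gene, had 6.21 and 6.42 CPM in KO libraries, against 0.650 and 0.750 CPM in SCR libraries (log2 fold change 3.16, SE 0.19, edgeR adjusted p 0.000458). Art3, of the ADP-ribosyltransferase family, had 21.1 and 22.7 CPM in KO libraries and 5.88 and 6.39 CPM in SCR libraries (1.83, SE 0.11, edgeR adjusted p 0.000458). Both KO values of these genes were at least 3 times any SCR value. C1ql1, which encodes a secreted C1q-like protein, rose by 1.99 log2 units. The zinc finger gene Zc3h10 rose by 1.78, Gcnt1, which branches O-linked glycans, by 1.62, and the acyl-CoA synthetase gene Acsbg1 by 1.48.

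Under a rule on counts, 15 genes had at least 20 in both libraries of a genotype and at most 3 in both of the other. They were 0.0852% of the 17613 genes with at least 20 counts in both libraries of a genotype. No test was made under this rule, but some of the 15, such as H2ac19 and Ctf1, are also among the genes called above. Where both libraries of a genotype were at 0, the fold is a lower bound against a floor of 3 counts per library; where they held 1 or more counts, it is the ratio of the scaled counts with its exact 95% counting interval, and the 2 kinds of fold are not comparable. Of these genes 3 were higher and 12 lower in KO. Thbs2, thrombospondin-2, a matricellular protein, had 0 and 0 counts in KO libraries, against 83 and 103 in SCR libraries, so it was at least 33.1-fold lower. Itga3, the integrin subunit of the laminin receptor alpha3beta1, had 0 and 0 counts in KO libraries and 40 and 88 in SCR libraries, at least 22.5-fold lower. Notch3, a Notch receptor, had 0 and 0 counts in KO libraries and 25 and 51 in SCR libraries, at least 13.4-fold lower. The footprints of these 3 genes were also lower in KO: Thbs2 had 3.43 and 2.27 CPM in KO footprints and 29.3 and 34.9 CPM in SCR footprints, and Itga3 had 0 and 0 CPM in KO footprints and 6.53 and 6.68 CPM in SCR footprints. Notch3 had 3.89 and 3.63 CPM in KO footprints and 10.70 and 10.99 CPM in SCR footprints. Reads of Thbs2 and Notch3 were thus present in the KO cells although their input RNA was listed at 0.

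Enpp3, an ectonucleotide pyrophosphatase, had 0 and 0 counts in KO libraries and 21 and 23 in SCR libraries (at least 7.85-fold lower). The calcium release channel gene Ryr1 (at least 10.2-fold), the cytokine gene Ctf1 (at least 9.56-fold) and the synaptotagmin gene Syt16 (at least 16.4-fold) were also at 0 in both KO libraries. Reads of Enpp3 and Ryr1 were nevertheless present in KO footprints. Enpp3 had 3.30 and 3.90 CPM there and 7.45 and 9.69 CPM in SCR footprints, and Ryr1 had 1.52 and 1.09 CPM against 1.92 and 2.47 CPM. Schip1, which overlaps a longer read-through gene and whose counts are therefore uncertain, had 0 and 1 counts in KO libraries, against 162 and 161 in SCR libraries, a ratio of 346-fold lower on a single KO count, with a counting interval of 61.7 to 13727. C4b, a complement gene with a near-identical copy, had 0 and 2 counts in KO libraries and 20 and 28 in SCR libraries (25.7-fold, interval 6.75 to 219). The remaining 3 of the 12 have no established name. On the other side, Sorcs2, a sortilin-family receptor, had 55 and 35 counts in KO libraries and 0 and 0 in SCR libraries (at least 13.8-fold higher). Exosc6, a subunit of the RNA exosome, had 163 and 63 counts in KO libraries and 1 and 3 in SCR libraries (52.7-fold, interval 20.3 to 195). The histone gene H2ac19 had 1985 and 751 counts in KO libraries and 0 and 0 in SCR libraries, but it has a near-identical copy and its counts are therefore uncertain. Its footprints were 0 in all 4 libraries. The intervals cover counting error only.

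The basement membrane is the sheet of collagen IV, laminins, nidogen and related proteins on which cells rest. Of its 22 genes tested, 4 rose and 8 fell (18.2% and 36.4%), with a median log2 fold change of -0.26. Counts for this list and the later ones stand against 9.56% higher and 7.21% lower among all genes tested. Both main chains of collagen IV were among the falls. Col4a1 (chr8:11249804-11362599) had 65.6 and 65.4 CPM in KO libraries, against 162 and 162 CPM in SCR libraries (log2 fold change -1.30, SE 0.05, edgeR adjusted p 0.000105). Its head-to-head neighbour Col4a2 (chr8:11363464-11498313), whose chain joins the same trimer, had 36.9 and 35.6 CPM in KO libraries and 77.2 and 77.1 CPM in SCR libraries (-1.09, SE 0.06, edgeR adjusted p 0.000361). The genotypes were far apart and the libraries of each genotype nearly equal. Among laminin chains, Lama5 had 112 and 113 CPM in KO libraries, against 208 and 196 CPM in SCR libraries (-0.84, SE 0.05, edgeR adjusted p 0.000458). Lamb2 fell by 0.50 log2 units, while Lamc1, the gamma chain shared by many laminins, had 422 and 420 CPM in KO libraries and 439 and 433 CPM in SCR libraries and did not pass (-0.05, SE 0.04, edgeR adjusted p 0.465). In the other direction, Npnt, nephronectin, an integrin ligand, had 11.9 and 12.8 CPM in KO libraries and 5.93 and 5.57 CPM in SCR libraries (1.10, SE 0.13, edgeR adjusted p 0.00432). Nid1, nidogen-1, which links laminin to collagen IV, rose by 0.56.

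**Figure D2:**
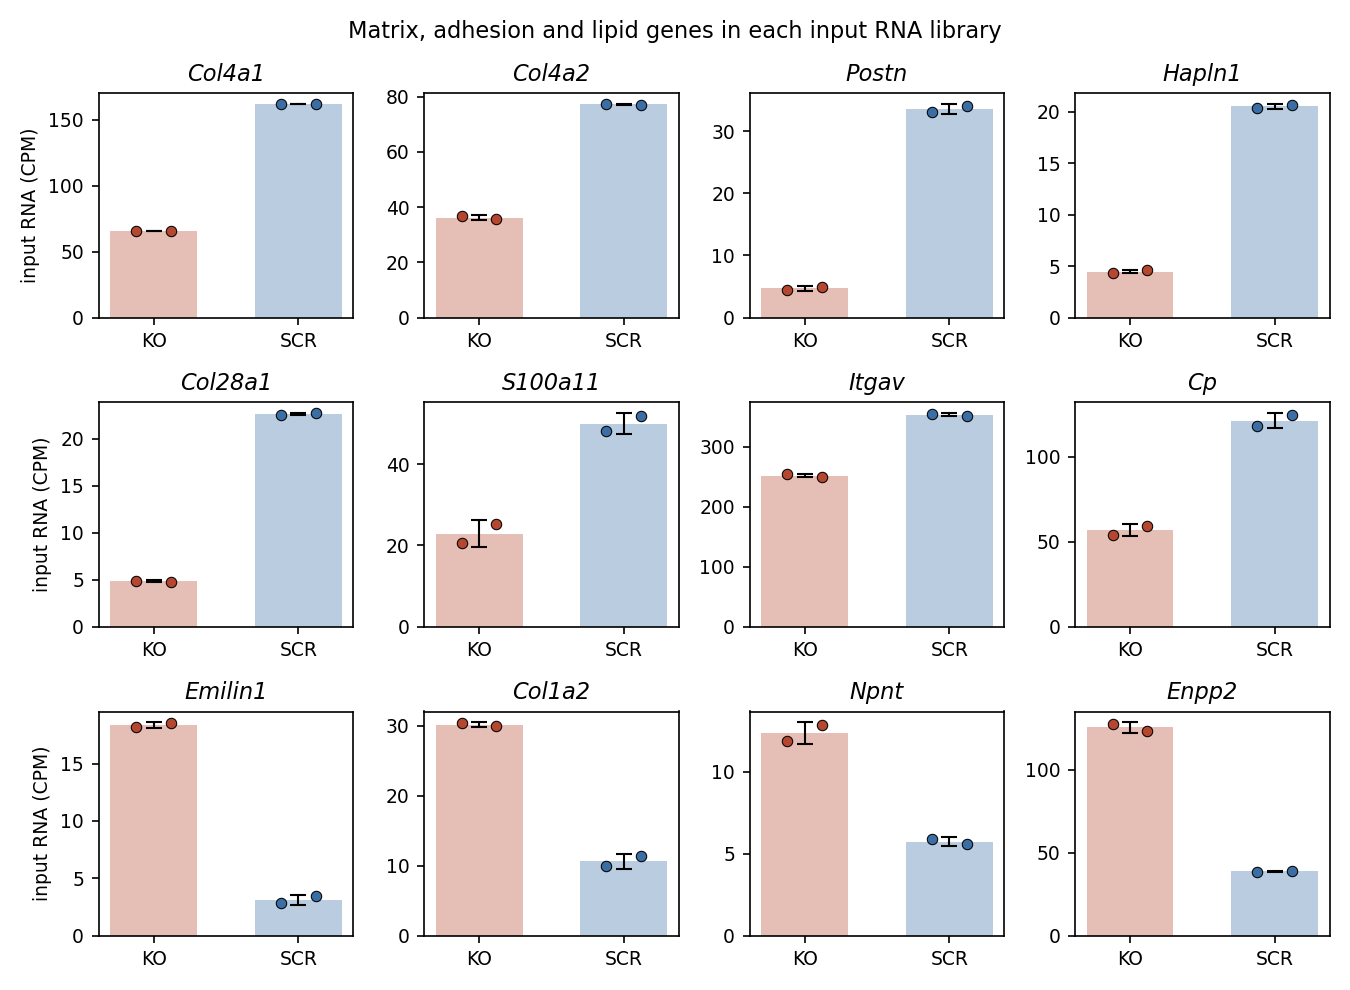
Input RNA in CPM for 12 genes in each library, KO left and SCR right, with points for the 2 libraries, bars for their mean and error bars for the SD. The first 8 genes are lower in KO and Emilin1, Col1a2, Npnt and Enpp2 higher. The KO and SCR points do not overlap in any panel, which holds for all 3358 called genes.

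Interstitial collagens form the fibrils and associated networks of connective tissue. Of 25 tested, 2 rose and 2 fell (8% each, near the shares of all genes tested), and their median was 0.20. Col28a1, a collagen of the von Willebrand domain type, had 4.91 and 4.80 CPM in KO libraries, against 22.6 and 22.7 CPM in SCR libraries (log2 fold change -2.22, SE 0.11, edgeR adjusted p 0.000306). Col1a2, a chain of type I collagen, had 30.4 and 29.9 CPM in KO libraries and 9.91 and 11.4 CPM in SCR libraries (1.5, SE 0.10, edgeR adjusted p 0.000686). Col3a1, the chain of type III collagen, had 0 and 0 counts in KO libraries and 16 and 17 in SCR libraries and also fell, and Col14a1, a fibril-associated collagen, rose with 2.32 and 2.29 CPM in KO libraries and 0.926 and 1.09 CPM in SCR libraries; these 2 low genes were named after their values were seen. Both calls were lost without SCR replicate 1, and that of Col3a1 also without SCR replicate 2 and with no filter. Col3a1 had 2.175 and 0.454 CPM in KO footprints and 0.590 and 0.267 CPM in SCR footprints, so its footprints did not show the fall. Col5a1, which regulates fibril width, had 63.2 and 62.4 CPM in KO libraries and 66.2 and 65.4 CPM in SCR libraries and did not pass (-0.07, SE 0.05, edgeR adjusted p 0.426). Most interstitial collagens thus did not pass, and those that did went both ways.

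Matricellular proteins sit in the matrix and signal to cells rather than bearing load. Of 38 tested with the matrix glycoproteins, 5 rose and 14 fell (median -0.22). Postn, periostin (chr3:54268564-54297717), had 4.43 and 4.96 CPM in KO libraries, against 33.0 and 34.1 CPM in SCR libraries (log2 fold change -2.84, SE 0.10, edgeR adjusted p 0.000105). Spp1, osteopontin, had 0.917 and 1.09 CPM in KO libraries and 2.75 and 3.34 CPM in SCR libraries (-1.60, SE 0.23, edgeR adjusted p 0.00724). Edil3, an integrin-binding protein, had 5.52 and 5.19 CPM in KO libraries and 16.9 and 14.3 CPM in SCR libraries (-1.54, SE 0.14, edgeR adjusted p 0.00196). For all 3 genes the KO libraries were well below both SCR libraries. Ecm1 fell by 0.83 and Ccn4, a Wnt-induced member of the CCN family, by 0.79. Emilin1, a glycoprotein of elastic fibres (chr5:31071219-31078293), had 18.2 and 18.5 CPM in KO libraries, against 2.83 and 3.46 CPM in SCR libraries, and rose most of this list (2.54, SE 0.14, edgeR adjusted p 0.000393). Thbs1, thrombospondin-1, had 27.36 and 28.99 CPM in KO libraries and 17.4 and 19.5 CPM in SCR libraries (0.61, SE 0.09, edgeR adjusted p 0.0082). Thbs1 therefore moved opposite to Thbs2, described above.

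Proteoglycans and the hyaluronan genes gave 3 rises and 4 falls among 26 tested, with a median of -0.11. Hapln1, the link protein that fixes proteoglycans to hyaluronan, had 4.35 and 4.61 CPM in KO libraries, against 20.4 and 20.7 CPM in SCR libraries (log2 fold change -2.19, SE 0.11, edgeR adjusted p 0.000361). Prelp, a leucine-rich repeat proteoglycan, had 3.73 and 3.78 CPM in KO libraries and 11.4 and 12.1 CPM in SCR libraries (-1.65, SE 0.13, edgeR adjusted p 0.00141). Bcan, brevican, a hyaluronan-binding proteoglycan, had 15.6 and 13.4 CPM in KO libraries and 4.95 and 5.73 CPM in SCR libraries (1.44, SE 0.15, edgeR adjusted p 0.00289). Cd44, the hyaluronan receptor, had 699 and 716 CPM in KO libraries and 748 and 750 CPM in SCR libraries and did not pass (-0.08, SE 0.04, edgeR adjusted p 0.232). Enzymes that modify and cross-link collagen gave 4 rises and 3 falls among 25 (median 0.02). Adamts14, a procollagen N-proteinase, fell by 0.74 and Pcolce, the enhancer of the C-proteinase, rose by 0.30; both calls were lost without SCR replicate 1, and that of Pcolce also with no filter.

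Over the 5 matrix lists, 18 of 136 genes tested rose and 31 fell, with a median of -0.10. Of the 49 calls, 36 remained without KO replicate 1 and 46 without KO replicate 2. Leaving out an SCR library kept 21 (SCR replicate 1) and 27 (SCR replicate 2). In bulk RNA, fewer cells of a kind and less RNA per cell cannot be told apart.

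Matrix proteases cut the matrix and release bound factors. Of 48 protease and inhibitor genes tested, 3 rose and 11 fell, with a median of -0.18. Adamts1, which cleaves large proteoglycans, had 281 and 285 CPM in KO libraries, against 555 and 535 CPM in SCR libraries (log2 fold change -0.94, SE 0.05, edgeR adjusted p 0.000306). Its relative Adamts4, an aggrecanase, had 46.2 and 44.3 CPM in KO libraries and 78.9 and 78.8 CPM in SCR libraries (-0.80, SE 0.06, edgeR adjusted p 0.000829). The inhibitor gene Timp3 had 34.0 and 36.8 CPM in KO libraries and 60.5 and 56.7 CPM in SCR libraries (-0.73, SE 0.07, edgeR adjusted p 0.00239). The proteases and an inhibitor of them were thus lower together. Plat, the tissue plasminogen activator, fell by 1.40. Adam9, a sheddase, rose by 0.34, a call lost without SCR replicate 1. Mmp14, a membrane-bound collagenase, had 207 and 206 CPM in KO libraries and 205 and 204 CPM in SCR libraries and did not pass (0.01, SE 0.04, edgeR adjusted p 0.879).

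Secreted growth factors were split, with 9 rises and 10 falls among 46 tested (median 0.08). Adm, adrenomedullin, a vasoactive peptide, had 1.19 and 0.997 CPM in KO libraries, against 4.28 and 4.68 CPM in SCR libraries (log2 fold change -2.03, SE 0.20, edgeR adjusted p 0.00278). Artn, a ligand of the GDNF family, fell by 1.48, and Fstl1, a follistatin-like glycoprotein, by 1.20. Isoforms of TGF-beta went in opposite directions. Tgfb1 had 3.31 and 3.64 CPM in KO libraries and 1.08 and 1.61 CPM in SCR libraries (1.36, SE 0.24, edgeR adjusted p 0.0131), whereas Tgfb3 had 11.6 and 12.5 CPM in KO libraries and 19.2 and 18.4 CPM in SCR libraries (-0.64, SE 0.10, edgeR adjusted p 0.0096). Both calls were lost when SCR replicate 1 was left out, and that of Tgfb1 also with no filter. Tgfa, a ligand of the EGF receptor, had 21.4 and 21.6 CPM in KO libraries and 12.3 and 13.4 CPM in SCR libraries (0.74, SE 0.10, edgeR adjusted p 0.00565). Metrn, meteorin, a neurotrophic factor, rose by 0.58, a call lost with no filter. Among chemokines and cytokines, 23 were tested, of which 1 rose and 2 fell (median -0.05). The riser was Cxcl10, an attractant of T cells, with 11.8 and 14.2 CPM in KO libraries and 8.98 and 8.85 CPM in SCR libraries (0.55, SE 0.13, edgeR adjusted p 0.0341), a call lost with KO replicate 2 or either SCR library left out, and with no filter. The genes that fell were Spp1 and Ctf1, described above.

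Carrier, complement and acute-phase proteins, grouped with the IGF-binding proteins, gave 2 rises and 10 falls among 27 tested, with a median of -0.46. Lgals3, galectin-3, a sugar-binding protein (chr14:47616984-47623134), had 1.02 and 0.904 CPM in KO libraries, against 9.13 and 8.91 CPM in SCR libraries (log2 fold change -3.22, SE 0.17, edgeR adjusted p 0.000361). Cp, ceruloplasmin, a copper-bearing ferroxidase, had 54.1 and 59.1 CPM in KO libraries and 118 and 124 CPM in SCR libraries (-1.10, SE 0.06, edgeR adjusted p 0.000436). Ptgds, a prostaglandin D synthase that also carries lipids, had 314 and 302 CPM in KO libraries and 542 and 518 CPM in SCR libraries (-0.78, SE 0.05, edgeR adjusted p 0.000476). For these 3 genes both KO libraries were below both SCR libraries. The phospholipid transfer protein gene Pltp fell by 1.01 and the complement protease-like gene C1rl by 1.11. Complement C2 fell by 0.57 and Igfbp4, which binds insulin-like growth factors, rose by 0.37. The call of C2 was lost without SCR replicate 1, and that of Igfbp4 with either SCR library left out and with no filter. Gpnmb, a shed melanosome glycoprotein, had 3972 and 3871 CPM in KO libraries and 3775 and 3742 CPM in SCR libraries and did not pass (0.06, SE 0.04, edgeR adjusted p 0.358). Over the 4 secreted lists, 15 of 144 genes tested rose and 33 fell. Of these 48 calls, 21 remained without SCR replicate 1 and 28 without SCR replicate 2.

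S100 proteins and annexins bind calcium and gather beneath the plasma membrane. Of 18 tested, 0 rose and 10 fell, with a median of -0.39. S100a11 had 20.6 and 25.3 CPM in KO libraries, against 48.2 and 51.8 CPM in SCR libraries (log2 fold change -1.13, SE 0.10, edgeR adjusted p 0.00206). Anxa2, annexin A2, which works with S100A10 at the membrane, had 123 and 128 CPM in KO libraries and 208 and 210 CPM in SCR libraries (-0.74, SE 0.05, edgeR adjusted p 0.000647). Ahnak, a giant scaffold protein that binds that complex, had 154 and 150 CPM in KO libraries and 320 and 346 CPM in SCR libraries (-1.13, SE 0.05, edgeR adjusted p 0.000306). In all 3 the KO libraries lay below both SCR libraries. S100a10 itself had 80.7 and 83.7 CPM in KO libraries and 105 and 102 CPM in SCR libraries (-0.33, SE 0.05, edgeR adjusted p 0.00979), a call lost without SCR replicate 1. S100a4, known from metastatic cells, fell by 1.66 and Anxa6 by 0.57.

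Integrins couple the matrix to the actin skeleton through focal adhesion proteins. Of 48 tested, 1 rose and 13 fell (median -0.15). Itgav, the alpha-V chain of receptors for vitronectin, periostin and osteopontin, had 254 and 250 CPM in KO libraries, against 356 and 352 CPM in SCR libraries (log2 fold change -0.49, SE 0.04, edgeR adjusted p 0.00199). Inside the cell, Ilk, the integrin-linked pseudokinase, had 26.0 and 26.4 CPM in KO libraries and 44.4 and 42.8 CPM in SCR libraries (-0.73, SE 0.06, edgeR adjusted p 0.00164). Zyx, zyxin, and Vcl, vinculin, fell by 0.52 and 0.44. Itga2, a collagen receptor chain, fell by 1.02, a call lost without SCR replicate 2.

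Adhesion molecules of the immunoglobulin type and tetraspanins gave 1 rise and 19 falls among 54 tested (median -0.21). Cntn1, contactin-1, had 2.32 and 2.39 CPM in KO libraries, against 7.58 and 9.62 CPM in SCR libraries (log2 fold change -1.87, SE 0.18, edgeR adjusted p 0.00247). Cd82, a tetraspanin known as a suppressor of metastasis, had 6.87 and 6.17 CPM in KO libraries and 19.0 and 20.3 CPM in SCR libraries (-1.59, SE 0.12, edgeR adjusted p 0.00107). F11r, junctional adhesion molecule A, had 4.82 and 4.94 CPM in KO libraries and 15.8 and 11.5 CPM in SCR libraries (-1.48, SE 0.18, edgeR adjusted p 0.00462). Ncam1, the neural cell adhesion molecule, fell by 0.54. The KO libraries were below both SCR libraries for these 4 genes.

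Cadherins, catenins and desmosomal genes gave 3 rises and 4 falls among 28 (median -0.13). Jup, plakoglobin, a catenin of desmosomes, had 1.13 and 1.04 CPM in KO libraries, against 5.23 and 4.91 CPM in SCR libraries (log2 fold change -2.22, SE 0.19, edgeR adjusted p 0.00148). The protocadherin gene Pcdh7 rose by 0.40, a call lost without SCR replicate 2 and with no filter. Tight and gap junction genes gave 4 rises and 3 falls among 19 (median -0.04). Gjb2, connexin 26, had 38.8 and 42.8 CPM in KO libraries and 93.3 and 93.0 CPM in SCR libraries (-1.19, SE 0.07, edgeR adjusted p 0.000363). Panx1, which forms large membrane channels, had 62.3 and 52.3 CPM in KO libraries and 31.8 and 32.0 CPM in SCR libraries (0.84, SE 0.09, edgeR adjusted p 0.00328). Tjp1, the scaffold ZO-1, fell by 0.78. Semaphorin, ephrin, netrin and slit genes, which guide cells and axons, gave 5 rises and 10 falls among 54 (median -0.08). Sema3f and Sema3c, secreted semaphorins, fell by 1.48 and 1.34, the membrane-bound Sema6d by 1.04 and the ephrin receptor Epha7 by 1.38. Over the 6 adhesion and membrane lists, 14 of 221 genes tested rose and 59 fell (median -0.17). Of these 73 calls, 31 remained without SCR replicate 1 and 37 without SCR replicate 2.

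**Figure D3:**
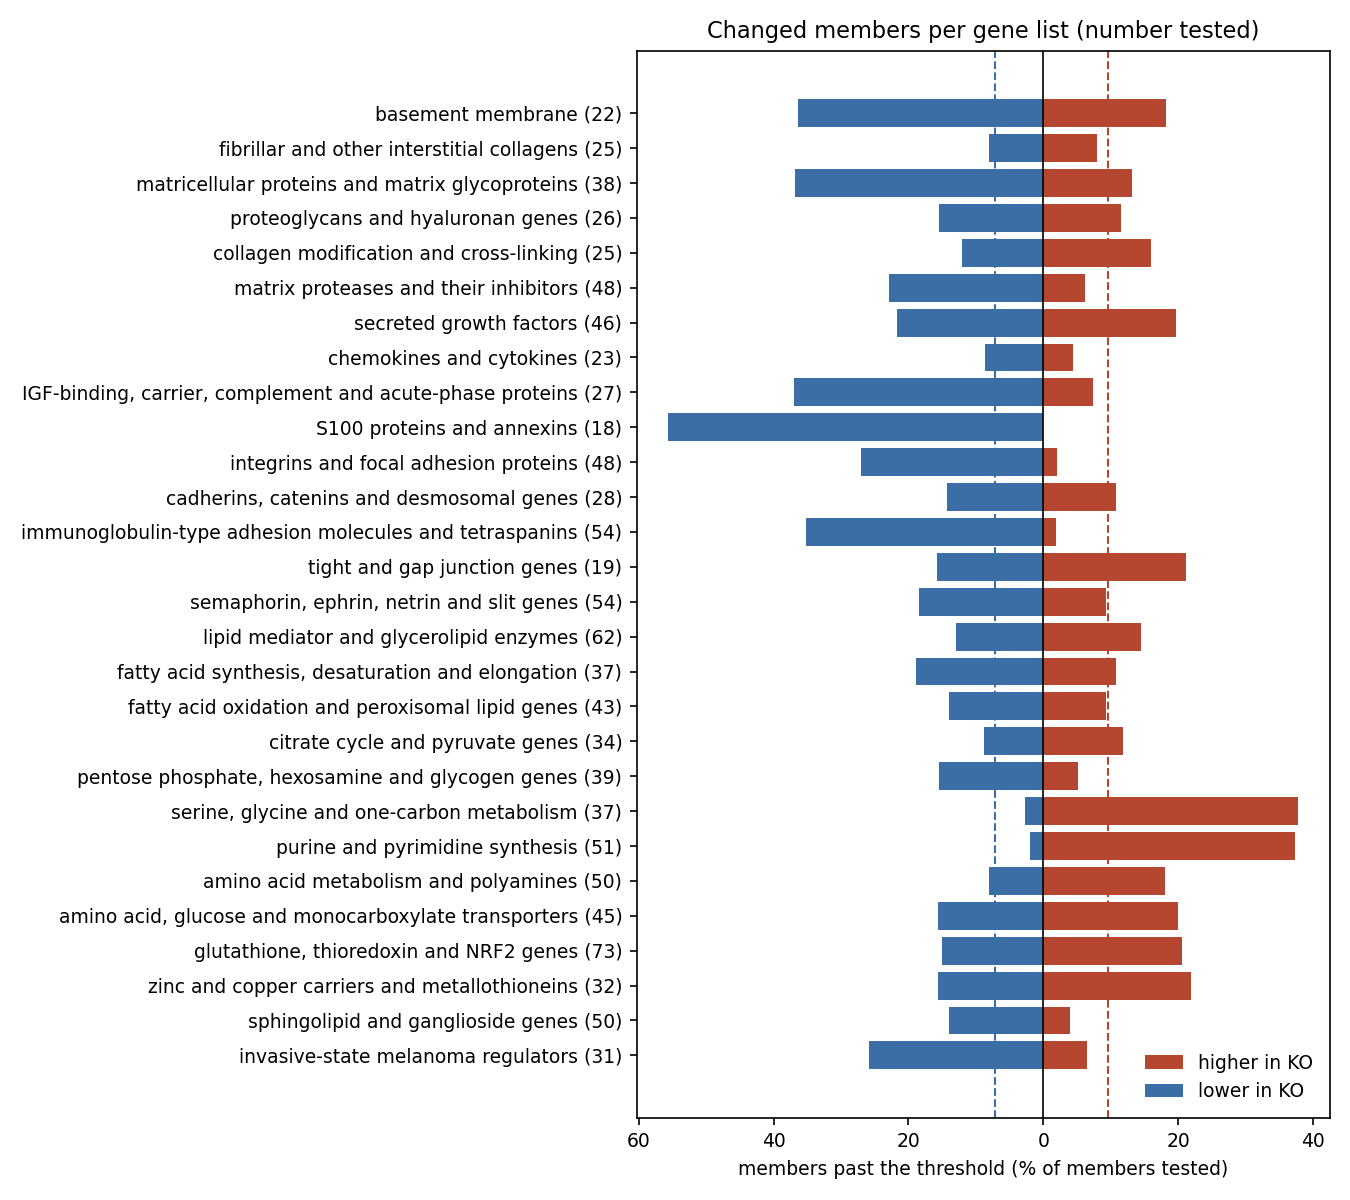
Share of the tested members of each list that passed the threshold, in percent, with members lower in KO to the left of 0 and higher to the right; the number tested follows each name. Dashed lines mark the shares among all genes tested, 9.56% higher and 7.21% lower, and the longest bar is that of the S100 proteins and annexins at 55.6% lower. All genes tested include many without a reading frame in the authors' list. Among the 11664 tested genes with a listed chromosome other than 5 and 8, 10.5% rose and 10.6% fell.

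Of 553 metabolic genes tested in 12 lists, 98 rose and 66 fell, with a median of 0.01. Of these 164 calls, 51 remained without SCR replicate 1 and 67 without SCR replicate 2. The lists differed in direction. Lipid mediator and glycerolipid enzymes gave 9 rises and 8 falls among 62 (median -0.09), fatty acid synthesis 4 and 7 among 37 (-0.11), and fatty acid oxidation with peroxisomal genes 4 and 6 among 43 (0.04). Citrate cycle and pyruvate genes gave 4 rises and 3 falls among 34 (0.08), while the pentose phosphate, hexosamine and glycogen genes gave 2 and 6 among 39 (-0.03).

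Enzymes that make or clear signalling lipids changed in both directions. Enpp2, autotaxin, the secreted enzyme that makes lysophosphatidic acid (chr15:54702765-54783357), had 128 and 123 CPM in KO libraries, against 38.3 and 39.0 CPM in SCR libraries (log2 fold change 1.70, SE 0.05, edgeR adjusted p 7e-05). The phospholipase A2 gene Pla2g4a, which frees arachidonic acid from membranes, had 5.80 and 6.70 CPM in KO libraries and 1.75 and 2.18 CPM in SCR libraries (1.66, SE 0.19, edgeR adjusted p 0.00405). A secreted enzyme of the same activity class, Pla2g2e, had 15.8 and 15.0 CPM in KO libraries and 6.08 and 7.69 CPM in SCR libraries (1.16, SE 0.14, edgeR adjusted p 0.00501). The KO values of all 3 were above both SCR values. Mgll, monoacylglycerol lipase, had 20.0 and 17.3 CPM in KO libraries, against 53.6 and 50.1 CPM in SCR libraries (-1.47, SE 0.09, edgeR adjusted p 0.000436). Gpat4, which starts glycerolipid synthesis, rose by 0.52 and Lipa, the lysosomal acid lipase, fell by 0.42. Among fatty acid enzymes, Elovl4, an elongase of very long chains, rose by 0.89 and the desaturase family gene Fads6 fell by 2.05. Phyh, which degrades phytanic acid in peroxisomes, fell by 1.55, and Cpt1a, the gate for fatty acids into mitochondria, fell by 0.69.

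Enzymes of glycogen turnover were among the falls. Pygm, glycogen phosphorylase of the muscle type, had 1.90 and 1.90 CPM in KO libraries, against 8.38 and 8.48 CPM in SCR libraries (log2 fold change -2.15, SE 0.16, edgeR adjusted p 0.000974). Gys1, glycogen synthase, had 55.4 and 57.9 CPM in KO libraries and 75.8 and 74.1 CPM in SCR libraries (-0.40, SE 0.06, edgeR adjusted p 0.00679). A gene for building glycogen and one for breaking it down therefore both fell. Tkt, transketolase of the pentose phosphate pathway, had 342 and 332 CPM in KO libraries and 320 and 322 CPM in SCR libraries and did not pass (0.07, SE 0.04, edgeR adjusted p 0.319). In the citrate cycle Mdh2, mitochondrial malate dehydrogenase, rose by 0.35, a call lost without SCR replicate 1.

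Nucleotide and one-carbon genes had the largest shares of rises among the 12 metabolic lists, at 37.3% and 37.8%, against 9.56% of all genes tested. Of 51 genes of purine and pyrimidine synthesis tested, 19 rose and 1 fell (median 0.17). Cad, which carries the first steps of pyrimidine synthesis (chr5:31212299-31235536), had 706 and 631 CPM in KO libraries, against 467 and 467 CPM in SCR libraries (log2 fold change 0.52, SE 0.06, edgeR adjusted p 0.00419). Dhodh, a later enzyme of the same pathway, had 23.6 and 23.6 CPM in KO libraries and 16.3 and 15.9 CPM in SCR libraries (0.55, SE 0.09, edgeR adjusted p 0.00915). Nme1, a nucleoside diphosphate kinase, had 348 and 275 CPM in KO libraries and 202 and 197 CPM in SCR libraries (0.65, SE 0.10, edgeR adjusted p 0.00915), a call lost with no filter. All 3 were higher in both KO libraries, with the KO libraries of Cad and Nme1 further apart than their SCR libraries. The gene that fell was Ampd3, AMP deaminase, by 1.11, a call lost without SCR replicate 2 and with no filter.

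Of 37 genes of serine, glycine and one-carbon metabolism, 14 rose and 1 fell (median 0.07). Gcsh, the carrier protein of the glycine cleavage system, had 31.7 and 29.4 CPM in KO libraries, against 14.7 and 15.4 CPM in SCR libraries (log2 fold change 1.02, SE 0.09, edgeR adjusted p 0.00148). Psph, the last enzyme of serine synthesis, had 41.2 and 42.3 CPM in KO libraries and 28.7 and 30.0 CPM in SCR libraries (0.51, SE 0.06, edgeR adjusted p 0.00511). Mthfd2, of mitochondrial folate metabolism, had 190 and 183 CPM in KO libraries and 148 and 137 CPM in SCR libraries (0.39, SE 0.06, edgeR adjusted p 0.00765). Each of the 3 was higher in both KO libraries. Phgdh, the first enzyme of serine synthesis, rose by 0.37, a call lost with either SCR library left out and with no filter. The 4 list members Gcsh, Dhodh, Cad and Psph lie on chromosomes 8 and 5, which are taken up below. Without the genes of those chromosomes, 14 of 43 purine and pyrimidine genes rose and 1 fell (median 0.15), and 12 of 33 serine, glycine and one-carbon genes rose and 1 fell (median 0.06).

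Amino acid and polyamine genes gave 9 rises and 4 falls among 50 (median 0.01). Odc1, ornithine decarboxylase, the gate of polyamine synthesis, had 392 and 359 CPM in KO libraries, against 261 and 267 CPM in SCR libraries (log2 fold change 0.51, SE 0.06, edgeR adjusted p 0.00349). Srm, spermidine synthase, the next step, had 137 and 126 CPM in KO libraries and 91.6 and 93.5 CPM in SCR libraries (0.51, SE 0.06, edgeR adjusted p 0.00405). Both steps were thus higher in KO by the same size. Asns, asparagine synthetase, rose by 0.38 and Gamt, which makes creatine, fell by 0.78. Transporters of amino acids, glucose and monocarboxylates gave 9 rises and 7 falls among 45 (median -0.13). Slc7a5, the large neutral amino acid transporter LAT1, had 367 and 357 CPM in KO libraries and 267 and 252 CPM in SCR libraries (0.48, SE 0.05, edgeR adjusted p 0.00328). Slc7a8, its relative LAT2, had 2.07 and 2.41 CPM in KO libraries and 4.88 and 4.34 CPM in SCR libraries (-1.04, SE 0.18, edgeR adjusted p 0.0125), a call lost without SCR replicate 1. The 2 related transporters moved in opposite directions. Slc5a6, a vitamin transporter, rose by 0.69, a call also lost without SCR replicate 1.

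Glutathione, thioredoxin and NRF2 genes gave 15 rises and 11 falls among 73 (median 0.01). Txn2, mitochondrial thioredoxin, had 184 and 170 CPM in KO libraries, against 126 and 129 CPM in SCR libraries (log2 fold change 0.47, SE 0.06, edgeR adjusted p 0.00445). Gstm5, a glutathione transferase of a cluster of similar genes among which reads may be shared, fell by 0.69, a call lost without SCR replicate 1. Zinc and copper carriers with the metallothioneins gave 7 rises and 5 falls among 32 (median 0.04), and without chromosomes 5 and 8 gave 4 rises and 4 falls among 26 (median -0.01). Metallothioneins bind zinc and copper and are induced by free zinc, as is the zinc exporter Slc30a1. Mt1 had 326 and 303 CPM in KO libraries and 192 and 207 CPM in SCR libraries (0.66, SE 0.06, edgeR adjusted p 0.00207). Mt2 had 85.2 and 81.3 CPM in KO libraries and 60.4 and 60.8 CPM in SCR libraries (0.46, SE 0.06, edgeR adjusted p 0.00453). Both metallothionein genes lie on chromosome 8. Slc30a1, on chromosome 1, had 27.9 and 26.6 CPM in KO libraries and 19.3 and 21.4 CPM in SCR libraries (0.42, SE 0.09, edgeR adjusted p 0.0207), a call lost with KO replicate 1 or SCR replicate 1 left out, and with no filter. The footprints of Mt1, Mt2 and Slc30a1 did not rise, and none of these genes passed there. Mt1 had 53.5 and 56.4 CPM in KO footprints and 65.8 and 52.5 CPM in SCR footprints. Mt2 had 6.86 and 11.8 CPM in KO footprints and 17.5 and 19.5 CPM in SCR footprints. Slc30a1 had 24.4 and 23.6 CPM in KO footprints and 26.5 and 29.1 CPM in SCR footprints. The zinc importer gene Slc39a10 fell by 0.49 in input RNA, a call lost with no filter. Sphingolipid and ganglioside genes gave 2 rises and 7 falls among 50 (median -0.02), with Asah2, neutral ceramidase, down by 0.90 and Smpd1, acid sphingomyelinase, down by 0.46.

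Melanoma cells shift between a pigmented and an invasive state, the second marked by the receptor kinase AXL. Of 31 regulators of the invasive state tested, 2 rose and 8 fell (median -0.07). These are 6.45% and 25.8%, against 9.56% and 7.21% of all genes tested. The larger rise was that of Sox9, with 6.952 and 5.215 CPM in KO libraries and 2.727 and 3.730 CPM in SCR libraries (0.91, SE 0.22, edgeR adjusted p 0.0337). Zeb2 and Yap1 did not pass (-0.23 and -0.03). Axl had 3.88 and 3.71 CPM in KO libraries, against 15.4 and 14.5 CPM in SCR libraries (log2 fold change -1.97, SE 0.13, edgeR adjusted p 0.000647). Tead2, a partner of YAP, had 53.3 and 46.6 CPM in KO libraries and 72.4 and 73.4 CPM in SCR libraries (-0.54, SE 0.07, edgeR adjusted p 0.00636). Id2, an inhibitor of basic helix-loop-helix factors, had 80.7 and 81.0 CPM in KO libraries and 56.8 and 50.9 CPM in SCR libraries (0.59, SE 0.07, edgeR adjusted p 0.00404). Of 17 melanocyte genes tested, 5 rose and 6 fell (29.4% and 35.3%, median -0.07). The falls were Oca2, a melanosome channel, by 1.68, Kit by 0.61, Trpm1 by 0.27, Tyr by 0.25, Slc24a5 by 0.24 and Mitf by 0.22. The rises were Mlana by 0.59, Dct by 0.43, Slc45a2 by 0.34, Mc1r by 0.26 and Rab38 by 0.19. Abundant genes went both ways. Mitf had 440.8 and 451.2 CPM in KO libraries and 510.4 and 525.5 CPM in SCR libraries. Mlana had 540.3 and 471.3 CPM in KO libraries and 321.9 and 351.8 CPM in SCR libraries. All changed genes of this list are named, past the limit of 8 per list. Sox9 and the melanocyte genes other than Oca2 are not counted among the named genes in the sections below. Of the 10 calls among invasive-state regulators, 6 remained without SCR replicate 1 and 6 without SCR replicate 2.

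The defining markers matched cultured melanoma cells. The summed level of 7 melanocyte markers was 13811 and 13617 CPM in KO libraries and 12644 and 12863 CPM in SCR libraries, with none at 0. Of 10 blood cell markers, 7 had no count in any library, and the sum was 1.88 and 2.92 CPM in KO libraries and 2.88 and 3.73 CPM in SCR libraries. Of 8 fibroblast and endothelial markers, 3 had no count in any library, and the sum was 19.5 and 20.1 CPM in KO libraries and 20.5 and 16.9 CPM in SCR libraries. Of 6 epithelial markers, 5 had no count, and the sum was 0.640 and 0.487 CPM in KO libraries and 0.701 and 0.5003 CPM in SCR libraries. In the wider marker lists, 5 blood, 6 fibroblast and endothelial and 1 epithelial genes were tested. Of these, the fibroblast and endothelial gene Col3a1 fell and 1 other rose, and in the other 2 lists 0 passed the edgeR threshold.

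Changed genes were unevenly spread over the genome. Of 13183 tested genes with a chromosome in the authors' list of reading frames, 691 lie on chromosome 8, where the median log2 fold change was 0.25, 39.2% rose and 2.46% fell. On chromosome 5, with 828 genes, the median was 0.16, 30.9% rose and 3.62% fell. The medians of the other 17 autosomes and chromosome X lay between -0.05 and 0.09, the highest on chromosome 15, where 20.8% rose. Chromosomes 5 and 8 held 11.5% of the genes but 30.0% of those that rose and 3.68% of those that fell. Off these chromosomes, 10.5% of genes rose and 10.6% fell, so that the surplus of rises over falls among all genes was not seen there. This is a description of where changed genes lie, with no test.

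The shift was present in both KO libraries. Genes of chromosome 8 took 4.13 and 4.04% of all CPM in KO libraries, against 3.46 and 3.46% in SCR libraries, and genes of chromosome 5 took 7.47 and 7.20% in KO libraries, against 6.28 and 6.26% in SCR libraries. On chromosome 8 all 12 windows of 10 Mb with at least 20 genes had a median above 0, from 0.09 to 0.36, and 6 of the 10 highest among 221 such windows of the genome lay there. A further 3 of those 10 were on chromosome 5. The highest window of all lay elsewhere, on chromosome 13 from 20 to 30 Mb, with a median of 0.39 and 37 of 73 genes higher. Chromosome 5 was not raised along its whole length: the windows from 90 to 100 Mb, from 100 to 110 Mb and from 110 to 120 Mb had medians of -0.05, -0.09 and 0.06, and those from 120 to 150 Mb had 0.19, 0.27 and 0.25. In the footprints of the same genotypes the median was 0.14 on chromosome 8 and 0.03 on chromosome 5. Of the genes described above as higher in KO, Gcsh, Dhodh, Slc7a5, Mt1, Mt2, Gpat4, Adam9 and Exosc6 lie on chromosome 8 and Cad, Psph, Mdh2, Slc5a6, Emilin1, Art3, Pcdh7, Pcolce, Cxcl10 and Sorcs2 on chromosome 5. Col4a1, Col4a2 and Plat fell although they lie on chromosome 8, and so did Spp1 and Sema3c on chromosome 5. The part of the regional shift in the change of any single gene was not tested.

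**Figure D4:**
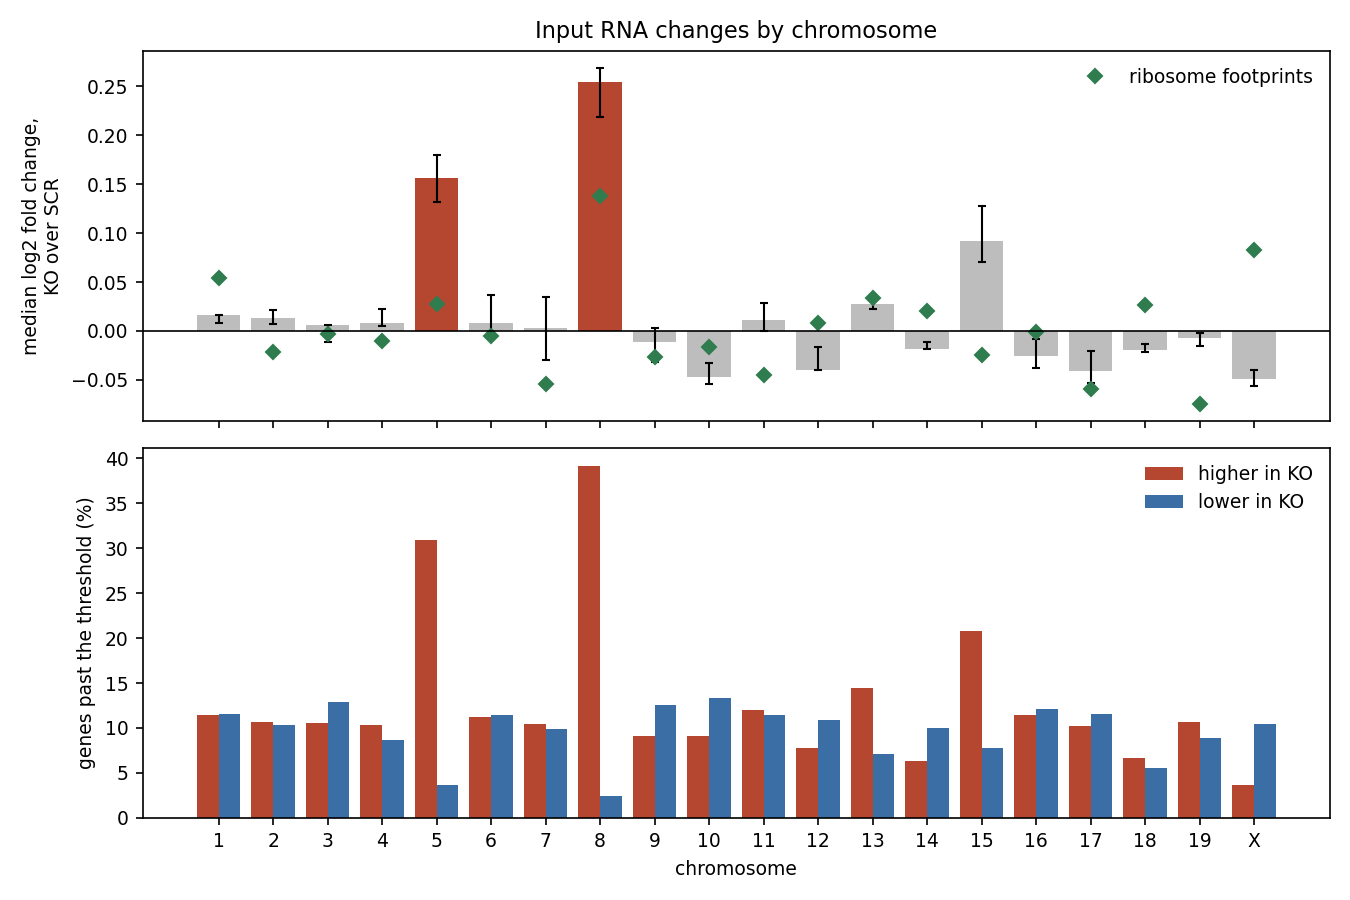
Median log2 fold change in input RNA per chromosome (upper panel, bars; error bars span the medians of the 4 pairs of a KO with an SCR library), with footprint medians as diamonds, and percent of genes past the threshold (lower panel, higher in KO left, lower right). Chromosomes 8 and 5 stand at 0.25 and 0.16, with 39.2% and 30.9% of their genes higher.

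Changes also followed coding length. Among 11664 tested genes with an annotated coding length (58.2%), split into 10 equal groups by length, the group with the shortest coding sequences, 48 to 516 bases, had a median log2 fold change of 0.14, with 25.2% higher and 5.31% lower. The group with the longest, 3480 to 96963 bases, had a median of -0.09, with 7.88% higher and 20.1% lower. Without ribosomal protein, histone and mitochondrially encoded genes these medians were 0.12 and -0.09. Trmt112 has a coding sequence of 375 bases, Mt1 and Mt2 of 183 bases each, and Ahnak of 16968 bases. The median coding length was 5007 bases among the basement membrane genes, 3096 among integrins and focal adhesion genes and 943.5 among purine and pyrimidine genes, against 1389 among all genes. The S100 proteins and annexins fell with a median of 957 bases. The part of coding length in the change of any list was not tested.

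**Figure D5:**
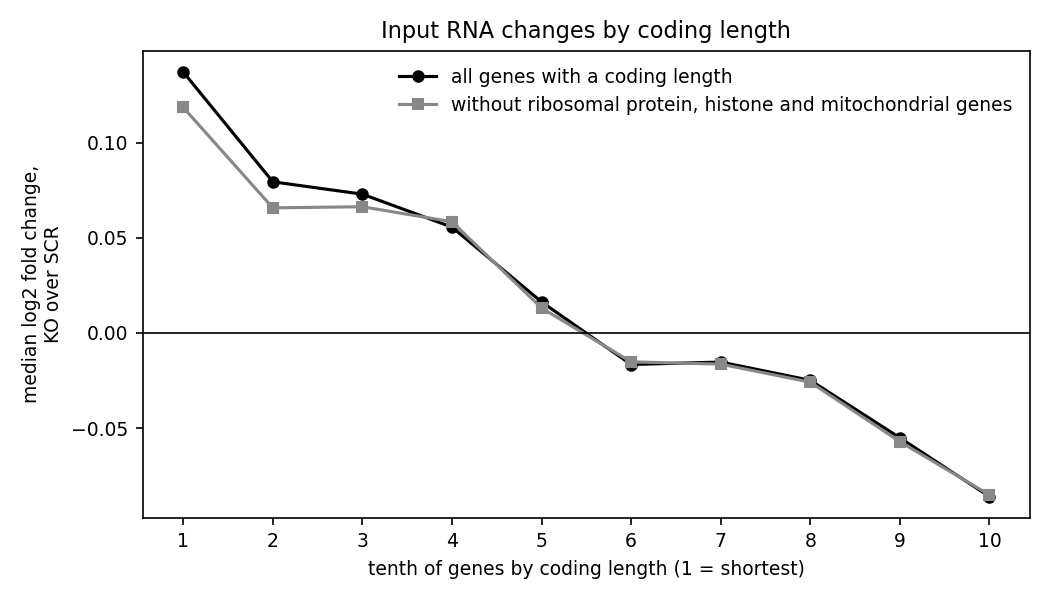
Median log2 fold change in input RNA, KO over SCR, in 10 equal groups of genes ordered by coding length from the shortest to the longest, for all genes with a length (circles) and without ribosomal protein, histone and mitochondrially encoded genes (squares). The median is 0.14 in the group of shortest genes and -0.09 in that of the longest.

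Some classes of RNA differed between the KO libraries themselves. Replication-dependent histone genes summed to 11423 and 9471 CPM in KO libraries and 7284 and 7329 CPM in SCR libraries. Small nucleolar RNAs with U3 summed to 252.9 and 188.2 CPM in KO libraries and 108.1 and 116.8 CPM in SCR libraries. Cytosolic ribosomal protein genes summed to 29913 and 27031 CPM in KO libraries and 22177 and 22427 CPM in SCR libraries, and mitochondrially encoded genes to 7680 and 9756 CPM in KO libraries and 10209 and 10771 CPM in SCR libraries. KO replicate 1 was the further from the SCR libraries in all 4 classes. Their part in the changes above was not tested.

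Ribosome footprints give a second readout for the same genes. Of 16878 genes tested in footprints, 387 passed (2.29%; 0.51% higher and 1.78% lower). Of 118 genes named here that changed in input RNA and were tested in both assays, 97 had the same sign in footprints, 37 also passed there with the same sign, and 0 passed with the opposite sign. Col4a1 had 152 and 146 CPM in KO footprints, against 442 and 403 CPM in SCR footprints (log2 fold change -1.5, edgeR adjusted p 0.0124). Cd82 had 78.1 and 71.8 CPM in KO footprints and 171 and 183 CPM in SCR footprints (-1.24, edgeR adjusted p 0.0139). Enpp2 had 469 and 441 CPM in KO footprints and 242 and 267 CPM in SCR footprints (0.84, edgeR adjusted p 0.0311). Footprint calls numbered 25 with KO replicate 1 left out, 57 with KO replicate 2, 128 with SCR replicate 1 and 44 with SCR replicate 2.

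For other genes the footprints were nearly level where input RNA was not. Whether the 2 changes differ was tested as the interaction of genotype and assay, which called 1487 of 13779 genes (10.8%), 59 of these 118 among them. The 118 genes were chosen by their change in the same input RNA libraries that enter the interaction. Their number of calls can therefore not be set against the share of all genes. Anxa2 had 425 and 492 CPM in KO footprints, against 400 and 430 CPM in SCR footprints, and its interaction passed (edgeR adjusted p 0.012). Cntn1 had 32.0 and 30.7 CPM in KO footprints and 28.3 and 30.4 CPM in SCR footprints (interaction, edgeR adjusted p 0.0045). Cp had 416 and 387 CPM in KO footprints and 384 and 401 CPM in SCR footprints (interaction, edgeR adjusted p 0.0045). For these 3 genes input RNA was lower in KO and the KO and SCR footprints overlapped or lay close together. Panx1, which rose in input RNA, had 51.2 and 47.4 CPM in KO footprints and 55.4 and 50.7 CPM in SCR footprints (interaction, edgeR adjusted p 0.015). None of the named nucleotide and one-carbon genes that rose in input RNA passed in footprints. Their footprint log2 fold changes were 0.03 for Cad, -0.07 for Dhodh, 0.05 for Psph and 0.0047 for Phgdh. Mthfd2 had 0.16, Nme1 0.19 and Gcsh 0.64. The interaction passed for Cad, Dhodh and Psph and not for the others. The interaction was also refitted with the input RNA and footprint libraries of the same genotype and number left out together. Calls were fewer each time, and far fewer without KO replicate 1, SCR replicate 1 or SCR replicate 2. Single calls are therefore uncertain, and these fits cannot tell which library or assay they depend on.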

How the data were processed

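The authors deposited expected counts for each gene in each library, as whole numbers with no normalization. Per the submitters' processing notes, STAR 2.7.10a and StringTie 2.1.7 and GRCm39 were used, in roles that the notes do not give. No strand setting is stated. Chromosomes, positions and coding lengths came from annotated reading frames whose block lengths, in bases, the authors deposited (another measure than counts), and the design had named a reference table for this, which is on an older build. Neighbours of Mettl5 came from RefSeq. The counts went into edgeR 4.0.16 in R 4.3.3: filterByExpr, TMM scaling, dispersion trend and quasi-likelihood F test over the 4 input RNA libraries, with a Benjamini-Hochberg adjusted p below 0.05 over all genes. CPM values are TMM-scaled. Footprints were fitted apart, and the interaction over all 8 libraries. The test was checked on simulated data. Libraries of 1 genotype differed by a median of 0.0802 (KO) and 0.0560 (SCR) log2 units over 8564 genes of at least 4 log2 CPM.

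The genes and lists were chosen with earlier results of these data known. Per list, up to 8 changed members by size of fold change with a mean of at least 1 log2 CPM and up to 2 others could be named, and over all genes the 20 largest rises and falls, and genes near 0 counts in 1 genotype. The 20 largest were drawn from called genes with a mean of at least 1 log2 CPM, no overlap between the genotypes and no name of a predicted gene. DESeq2 1.42.0, limma 3.58.1 voom, other scaling, no filter, a replicate block and leaving out each library were alternatives. Figures and tables used Python 3.11.15.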

Additional observations from a re-analysis of the deposited data

How the results depend on the processing

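Input RNA calls numbered 3358. Of these, 3339 remained with the size factors of DESeq2, 3060 with DESeq2 itself, 3200 with limma voom and 1193 with no filter (1193 called). Leaving out 1 library gave 1031 to 4251 calls. Without the genes of chromosomes 5 and 8, a choice made after seeing the data, there were 2784. The list members called numbered 343, then 164 with no filter and 133 to 384 with 1 library left out. Of 120 genes named as changed, 102 to 119 were called with 1 library left out and 107 with no filter. Genes near 0 counts in 1 genotype numbered 15, and 36 to 50 with 1 library left out, which asks less of each gene. The median of chromosome 8 was 0.23 to 0.27 with 1 library left out. Footprint calls numbered 387, then 755 with no filter, 1363 with DESeq2 and 25 to 128 with 1 library left out. Interaction calls numbered 1487, then 712 with no filter and 53 to 1057 with 1 library left out. The cause of these shifts was not tested, other than that fewer libraries or more genes entered the fits.

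Replicate numbers were not shown to pair libraries: deviations of same-numbered KO and SCR libraries correlated with an r of 0.0592 in input RNA, 0.173 over its genes of at least 4 log2 CPM, and 0.0666 in footprints. With a replicate block input RNA gave 3659 calls, 3230 of them shared. Footprints gave 0 with edgeR under the replicate block (3495 at an unadjusted p below 0.05, smallest adjusted p 0.0727; DESeq2 without it 1363), and the interaction 0 (3871 at an unadjusted p below 0.05, smallest adjusted p 0.0512; DESeq2 without it 1588).

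A count of 0 in a library allows up to 3 counts there, so differences below that floor were not detectable at this depth.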
